A study of Mus musculus with 8 samples.

Results

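The genes described here encode the hyaluronan-binding proteoglycans of the lectican family (Acan, Bcan, Ncan and Vcan), the link proteins that fasten them to hyaluronan (Hapln1, Hapln2, Hapln3 and Hapln4) and the tenascins Tnr and Tnc. They were chosen by gene symbol, as components of the matrix of perineuronal nets and nodes of Ranvier, and all 10 were among the 15035 genes of the deposited table. Expression was measured by RNA sequencing of auditory nerves dissected from mouse cochleas at postnatal day 21. Wild-type mice gave 4 libraries, numbered 1 to 4, and mice labelled Mef2c-heterozygote gave 4, numbered 5 to 8, with both cochleas of a mouse pooled into 1 library. Mef2c encodes a MADS-box transcription factor. The labels do not describe the mutant allele, the strain, the sex or any treatment, and the comparison is between libraries by their labelled Mef2c genotype.

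Lecticans are large proteins that carry chondroitin sulphate chains and bind hyaluronan through their amino-terminal end. A link protein stabilises that bond, and tenascins cross-link the other end of the lectican, so that the complex forms a mesh on the cell surface. In nervous tissue the mesh surrounds neuronal cell bodies as perineuronal nets and fills the gap at nodes of Ranvier, while aggrecan with Hapln1 is also the main proteoglycan complex of cartilage. Bulk tissue cannot tell fewer cells of a type from less RNA per cell.

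Each lectican gene has a link protein gene as its neighbour, with 0 protein-coding genes between them in the GENCODE M21 annotation of build GRCm38. Acan (chromosome 7, 79053483 to 79115099, plus strand) ends 2 bases from the end of Hapln3 (79115102 to 79131018, minus strand). Bcan (chromosome 3, 87987531 to 88000230) and Hapln2 (88021750 to 88027583) both lie on the minus strand, 21519 bases apart. Ncan (chromosome 8, 70093085 to 70120873, minus strand) is 2222 bases from Hapln4 (70083457 to 70090862, plus strand). Vcan (chromosome 13, 89655312 to 89742509, minus strand) is 43659 bases from Hapln1 (89539796 to 89611652, plus strand). Mef2c itself is on chromosome 13, 5.87 megabases from Hapln1. Tnr (chromosome 1, 159523769 to 159931729, plus strand) and Tnc (chromosome 4, 63959785 to 64047015, minus strand) lie elsewhere.

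The 250 bases before the RefSeq start site (GRCm38.p6) are shown for the 4 genes whose libraries did not overlap between genotypes, with no test of any relation between these sequences and the expression values. Capitals mark matches, on either strand, to the SOX core ACAAT, the TATA box TATAAA or the GC box GGGCGG.
Acan, chr7:79052976-79053225, plus strand: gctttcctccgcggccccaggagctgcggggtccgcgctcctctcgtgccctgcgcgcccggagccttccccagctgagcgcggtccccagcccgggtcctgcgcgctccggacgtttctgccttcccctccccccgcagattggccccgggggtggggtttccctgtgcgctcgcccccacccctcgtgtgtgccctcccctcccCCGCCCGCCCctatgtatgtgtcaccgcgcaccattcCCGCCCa
Bcan, chr3:88000357-88000606, minus strand: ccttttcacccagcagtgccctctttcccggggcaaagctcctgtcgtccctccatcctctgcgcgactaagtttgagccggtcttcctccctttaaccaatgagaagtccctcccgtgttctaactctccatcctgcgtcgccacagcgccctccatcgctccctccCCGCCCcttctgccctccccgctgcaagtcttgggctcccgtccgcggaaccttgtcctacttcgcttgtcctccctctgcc
Hapln2, chr3:88027512-88027761, minus strand: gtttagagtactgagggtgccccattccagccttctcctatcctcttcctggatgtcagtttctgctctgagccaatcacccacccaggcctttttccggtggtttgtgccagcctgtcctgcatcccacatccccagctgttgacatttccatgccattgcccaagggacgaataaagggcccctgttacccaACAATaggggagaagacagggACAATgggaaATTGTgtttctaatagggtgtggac
Tnc, the more upstream of its 2 start sites, chr4:64047016-64047265, minus strand: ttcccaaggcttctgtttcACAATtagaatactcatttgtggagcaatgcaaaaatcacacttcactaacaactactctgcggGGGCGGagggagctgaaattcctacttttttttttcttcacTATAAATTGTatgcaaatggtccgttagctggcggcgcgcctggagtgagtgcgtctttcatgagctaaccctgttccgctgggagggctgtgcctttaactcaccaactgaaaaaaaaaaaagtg
The Hapln2 window held ACAAT at 3 places, all within 56 bases of the start, and no GC box. The Acan window held 3 GC boxes, of which 2 overlap each other, and neither of the other motifs. The Bcan window held 1 GC box. In the Tnc window TATAAA overlapped a reverse-strand ACAAT, with 1 more ACAAT and 1 GC box besides. Of 32851 promoter windows of this length, 27.7% held ACAAT, 12.4% TATAAA and 32.7% GGGCGG. The MEF2 motif was present in 2.92% of windows and in none of those of the 9 members with an entry in the RefSeq table, Hapln4 having none. These matches describe letters, not binding.

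The values are normalized counts, read counts scaled to a common size per library, from an estimated 13360997 to 21508709 reads. Mef2c was at 402.2 to 508.7 in wild type and 583.3 to 735.1 in the libraries labelled heterozygote, higher in all 4. Its log2 fold change was 0.53 (limma-trend adjusted p 0.186). As the allele is not described, counts per gene cannot check the label, and each direction below is between libraries as labelled. The labelled tissue was checked against its markers. The 11 spiral ganglion neuron genes summed to 220626 to 293774 normalized counts and the 8 myelinating Schwann cell genes to 105166 to 145576, with none of either list at 0 in all libraries. Xist, at 5175 to 8615 in 6 libraries, was at 7.6 in heterozygote-labelled library 5 and at 12 in wild-type library 1. No label gives sex. Across genes, log2 fold change rose with transcript length (Spearman 0.43 over 14709 genes, which are not independent replicates). In 10 bins by length the medians ran from -0.25 for the shortest transcripts to 0.23 for the longest, the bin that holds Acan, Ncan, Vcan, Tnr and Tnc. A second value with each library's length trend removed is therefore given for those 5 genes, for Hapln1, in the next bin, and for Hapln2, whose call it changes.

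Between genotypes, Acan and Tnc were higher and Bcan and Hapln2 lower in the libraries labelled heterozygote, with no overlap between the groups, and the other 6 genes overlapped. 9 of the 10 genes had enough reads to be tested, all but Hapln3. With limma-trend and Benjamini-Hochberg adjustment over 14870 genes, 0 of 9 passed 0.05, a threshold that 0.0807% of all tested genes passed. At an unadjusted p under 0.05 there were 5 of 9, with 2 higher (Acan and Tnc) and 3 lower (Bcan, Hapln2 and Ncan), where 14.1% of all genes passed (6.72% higher and 7.34% lower). The groups did not overlap in 4 of 9, against 7.26% of all genes (3.4% higher and 3.86% lower). The same 4, of 10, had an FDR under 0.05 in the authors' deposited table, against 1.61% of its genes (0.672% higher and 0.938% lower). 6 of the 9 log2 fold changes were above 0 and 3 below, with a median of 0.14 beside 0.015 over all genes. The median of all genes was 0.23 in the length bin that holds 5 of the 9, and 0.14 in that of Hapln1. With the length trend removed, Vcan was at -0.22, Hapln1 at 0.010 and Tnr at 0.056. Acan, Hapln4 and Tnc stayed above 0, and Bcan, Ncan and Hapln2 below. Without both libraries low in Xist, the log2 fold changes were 0.72 for Acan, -0.46 for Bcan, -0.92 for Hapln2 and 1.38 for Tnc. Without wild-type library 3, 3 of the 9 passed (Acan, Bcan and Hapln2), when 1.49% of all genes did. Without heterozygote-labelled library 6, 1 passed (Acan), when 0.121% of all genes did.

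**Figure D1:**
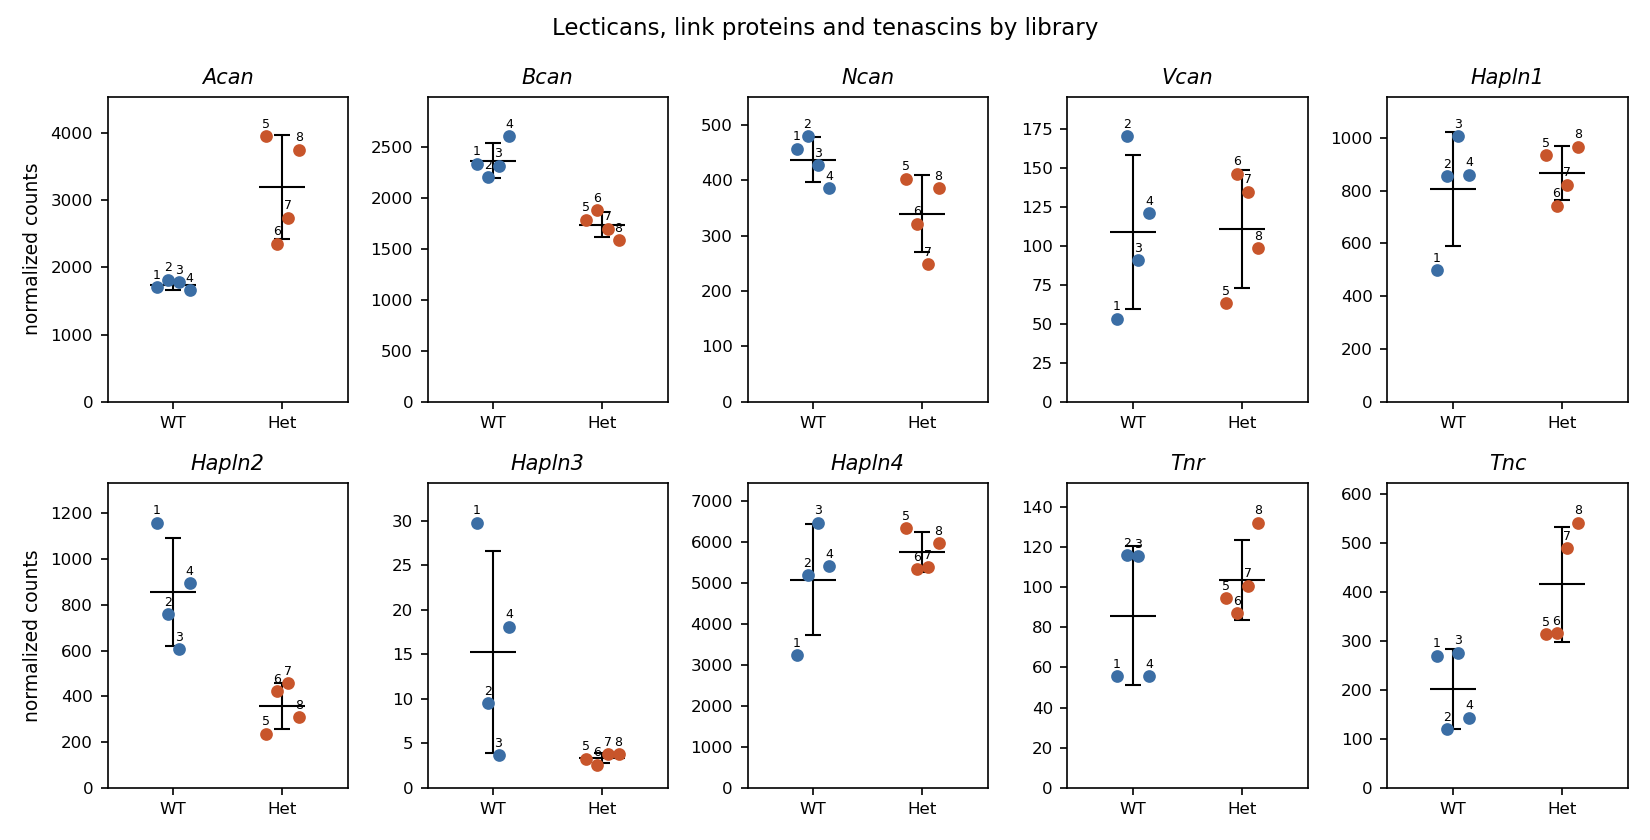
Normalized counts (y axis, from 0) of the 10 genes in each library, with wild type (WT) in blue and libraries labelled heterozygote (Het) in orange. Numbers are replicate numbers and bars show the mean and SD of 4 libraries. The groups are separate for Acan, Bcan, Hapln2 and Tnc and overlap for the others.

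Among the lecticans, Acan encodes aggrecan, the proteoglycan of cartilage and of perineuronal nets. It had 1703, 1820, 1781 and 1661 normalized counts in wild-type libraries 1 to 4. In heterozygote-labelled libraries 5 to 8 it had 3954, 2355, 2741 and 3757. All 4 lay above every wild-type library, and they spread far more widely than the wild-type libraries did. The means were 1741 ± 72.4 and 3202 ± 775 (SD, n = 4 each), which is 0.85 as a log2 fold change (95% interval 0.52 to 1.17). Its limma-trend adjusted p was 0.0632. With the length trend removed the log2 fold change was 0.66 (limma-trend adjusted p 0.135). The ratio in the authors' deposited table was 1.84, with an FDR of 3.78e-05.

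Bcan encodes brevican, a small lectican of nets and of the perinodal matrix in the central nervous system. Its wild-type libraries had 2340, 2208, 2320 and 2608 normalized counts, and those labelled heterozygote 1789, 1880, 1700 and 1588. The highest of the latter stayed below the lowest wild-type library. The means were 2369 ± 169 and 1739 ± 125 (SD, n = 4 each). The log2 fold change was -0.45 (95% interval -0.65 to -0.25). Its limma-trend adjusted p was 0.123 (0.0477 without wild-type library 3). The authors' deposited table gave an FDR of 0.0027.

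Ncan encodes neurocan, a lectican of the developing central nervous system. It had 456.8, 479.4, 427.2 and 385.3 normalized counts in wild type and 403.0, 321.5, 248.8 and 385.4 in the libraries labelled heterozygote. 2 of the latter, libraries 5 and 8, fell within the wild-type range. The log2 fold change was -0.38 (95% interval -0.75 to -0.016), and -0.57 with the length trend removed. The limma-trend adjusted p of Ncan was 0.341. Without heterozygote-labelled library 7, the lowest, the log2 fold change was -0.24 (unadjusted limma-trend p 0.147). The unadjusted p of Ncan, 0.0421 over all libraries, was also above 0.05 without wild-type library 1, 2 or 3 or heterozygote-labelled library 6 (0.0593 to 0.103), and with quantile normalization (0.0518). Vcan encodes versican, found in connective tissue and, as a neural isoform, at nodes. It ranged from 53.2 to 170.3 in wild type and from 63.0 to 146.4 in the libraries labelled heterozygote. Its log2 fold change was 0.074 with a 95% interval of -0.74 to 0.89, so that a change of either sign could not be told from the spread, and it was -0.22 with the length trend removed. It was also below 0 without wild-type library 1 (-0.22) or heterozygote-labelled library 6 (-0.084) or 7 (-0.044). The values are per gene and do not separate isoforms.

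Of the link proteins, Hapln2 (also called Bral1) is made by oligodendrocytes and sits at central nodes of Ranvier. It had 1160, 759.4, 606.8 and 896.2 normalized counts in wild type and 237.9, 424.3, 458.0 and 310.3 in the libraries labelled heterozygote. The highest heterozygote-labelled library, 7, was below the lowest wild-type library, 3. The means were 855.7 ± 235 and 357.6 ± 102 (SD, n = 4 each), which is -1.26 as a log2 fold change (95% interval -1.77 to -0.76). The limma-trend adjusted p was 0.0763, and 0.0456 with the length trend removed, when 0.19% of all genes passed. The authors' deposited table gave a ratio of 0.419 and an FDR of 6.62e-05.

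The oligodendrocyte markers moved with Hapln2. Of 14 such genes, which include Mobp and Cnp, 13 had a log2 fold change below 0, with a median of -1.01 beside 0.015 over all genes. With limma-trend 4 passed the adjusted threshold, all lower. They summed to 126457 to 160790 normalized counts in wild type and 66955 to 86887 in the libraries labelled heterozygote, and none was at 0 in all libraries. Within each genotype, the order of the libraries by Hapln2 was the same as their order by this sum. Per 1000 normalized counts of the sum, Hapln2 was at 4.80 to 7.22 in wild type and 3.55 to 5.44 in the libraries labelled heterozygote, so on this scale the groups overlapped. Bcan per 1000 counts of the same sum was instead higher, at 14.6 to 18.3 in wild type and 19.6 to 26.7 in the libraries labelled heterozygote. These ratios were chosen after the values had been seen.

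Beside Bcan and Ncan, 8 of 10 astrocyte genes had a log2 fold change below 0, with a median of -0.45. The list mixes directions, with Gfap at -0.99, Aldoc at -0.42 and Gjb6 at 0.13. With limma-trend 0 of the 10 passed after adjustment. At an unadjusted p under 0.05 there were 5, all lower, where 7.34% of all genes were. The genotypes did not overlap in 4 of the 10, all lower, against 3.86% of all genes. Gfap and Aldoc had an FDR under 0.05 in the authors' deposited table (0.000969 and 0.0413), both lower, against 0.938% of its genes. The list summed to 30621 to 43540 in wild type and 21014 to 32857 in the libraries labelled heterozygote, overlapping and with no gene at 0 in all libraries. Heterozygote-labelled library 6, with the highest sum of its group, was also the highest of all libraries in Gjb6 (11253). Per 1000 counts of the astrocyte sum, Bcan was at 53.7 to 80.0 and 57.2 to 85.1, overlapping. The 5 oligodendrocyte precursor genes were mixed, 2 above and 3 below 0, with Pdgfra at -0.062, Matn4 at -0.16, Cspg4 at 0.36 and Gpr17 at -1.31. The part of these cell types in the differences of Bcan and Ncan was not tested.

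Hapln4 (Bral2) is a link protein of brainstem perineuronal nets and Hapln1 is the link protein of cartilage and of nets. Hapln4 had 3247, 5201, 6485 and 5423 normalized counts in wild type and 6346, 5343, 5388 and 5977 in the libraries labelled heterozygote. Hapln1 had 499.6, 855.6, 1007 and 861.2, then 934.1, 743.2, 823.6 and 966.7. In both genes wild-type library 1 was the lowest of all 8 and the groups overlapped. Wild-type library 1 also had the lowest neuron marker sum (220626, against 239098 to 293774 in the other 7). The log2 fold change was 0.22 for Hapln4 (95% interval -0.16 to 0.60) and 0.14 for Hapln1 (-0.27 to 0.56). Their limma-trend adjusted p-values were 0.566 and 0.742. Without wild-type library 1 the log2 fold change was 0.018 for Hapln4 and -0.07 for Hapln1, and without wild-type library 3 it was 0.35 and 0.27. That of Hapln1 was 0.010 with the length trend removed. Neuron markers were divided, 4 of 11 above 0 and 7 below, with a median of -0.021. Per 1000 counts of their sum, Hapln4 was at 14.7 to 22.1 and 21.2 to 24.9, again overlapping.

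Hapln3, a link protein found outside the nervous system as well, was near the detection limit. It had 29.8, 9.5, 3.7 and 18.1 normalized counts in wild type and 3.3, 2.6, 3.8 and 3.8 in the libraries labelled heterozygote, where 3 reads are worth 2.37 to 3.89. Wild-type library 3 lay within the range of the libraries labelled heterozygote. With no filter on low values the limma-trend log2 fold change was -1.59 (unadjusted p 0.0421, adjusted p 0.344). The two-sided exact permutation p was 0.0857, and the authors' deposited table gave an FDR of 0.179.

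Of the tenascins, Tnc is a large glycoprotein of developing and remodelling connective tissue and of glia. It had 269.9, 119.9, 275.9 and 143.7 normalized counts in wild type and 313.9, 316.3, 490.0 and 541.9 in the libraries labelled heterozygote. The groups did not overlap, and within each genotype the libraries fell into a lower and a higher pair. The means were 202.4 ± 82.1 and 415.5 ± 118 (SD, n = 4 each), which is 1.09 as a log2 fold change (95% interval 0.44 to 1.73). The limma-trend adjusted p was 0.222, and the log2 fold change 0.90 with the length trend removed. The authors' deposited table gave a ratio of 2.06 and an FDR of 0.0371. Tnr, made by oligodendrocytes and some neurons, binds lecticans and nodal sodium channels. It ranged from 55.6 to 115.9 in wild type and from 87.1 to 132.2 in the libraries labelled heterozygote, overlapping, with a log2 fold change of 0.35 (95% interval -0.34 to 1.03) and 0.056 with the length trend removed. Without wild-type library 1 or 4, the lowest in Tnr, it was 0.17 each, and without wild-type library 2 or 3 it was 0.52 each.

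Markers of cartilage and bone were read beside Acan and Tnc, and none of the tested genes passed the limma-trend adjusted threshold. Of 11 cartilage genes listed, Matn1 and Matn3 were not in the deposited table. Of the 9 tested, 7 were above 0 with a median log2 fold change of 0.50. Col2a1 was at 0.60 and Col11a2 at 0.56, while Cnmd was at -0.35 and Epyc at -0.53. With limma-trend 0 passed after adjustment and 4 had an unadjusted p under 0.05, all higher, where 6.72% of all genes did. The genotypes did not overlap in 3 of the 9, Col9a1, Col9a2 and Col11a2, all higher, against 3.4% of all genes. The same 3 had an FDR under 0.05 in the authors' deposited table (0.0126, 0.0022 and 0.00538), against 0.672% of its genes higher. The list summed to 26732 to 40838 in wild type and 38867 to 44097 in the libraries labelled heterozygote, overlapping. Acan per 1000 counts of this sum was at 42.3 to 66.6 and 60.6 to 98.9, overlapping, with wild-type library 3 the highest of its group. The sum mixes directions, as its large parts were Col11a2, which was higher, and Cnmd and Epyc, which were lower. Their wild-type means were 9898, 7989 and 6412 normalized counts. Per 1000 counts of the neuron marker sum Acan was at 5.94 to 7.72 and 9.37 to 15.6, with no overlap. All 11 osteoblast and osteocyte genes were above 0, with a median of 0.58 and Col1a1 at 1.14, and 5 had an unadjusted p under 0.05 and 0 passed with limma-trend after adjustment. The genotypes overlapped in each of the 11, and 1, Alpl, had an FDR under 0.05 in the authors' deposited table (0.0378, higher). Their sum was 6026 to 22183 in wild type and 12916 to 28954 in the libraries labelled heterozygote, overlapping. Of 8 fibroblast genes, 7 were above 0, with a median of 0.19 and sums of 23415 to 43311 and 31891 to 39848. No gene of these 3 lists that was in the deposited table was at 0 in all libraries. Tnc per 1000 counts of the bone sum was at 12.2 to 31.6 and 16.9 to 31.3, overlapping. The part of these tissues in the differences of Acan and Tnc was not tested.

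**Figure D2:**
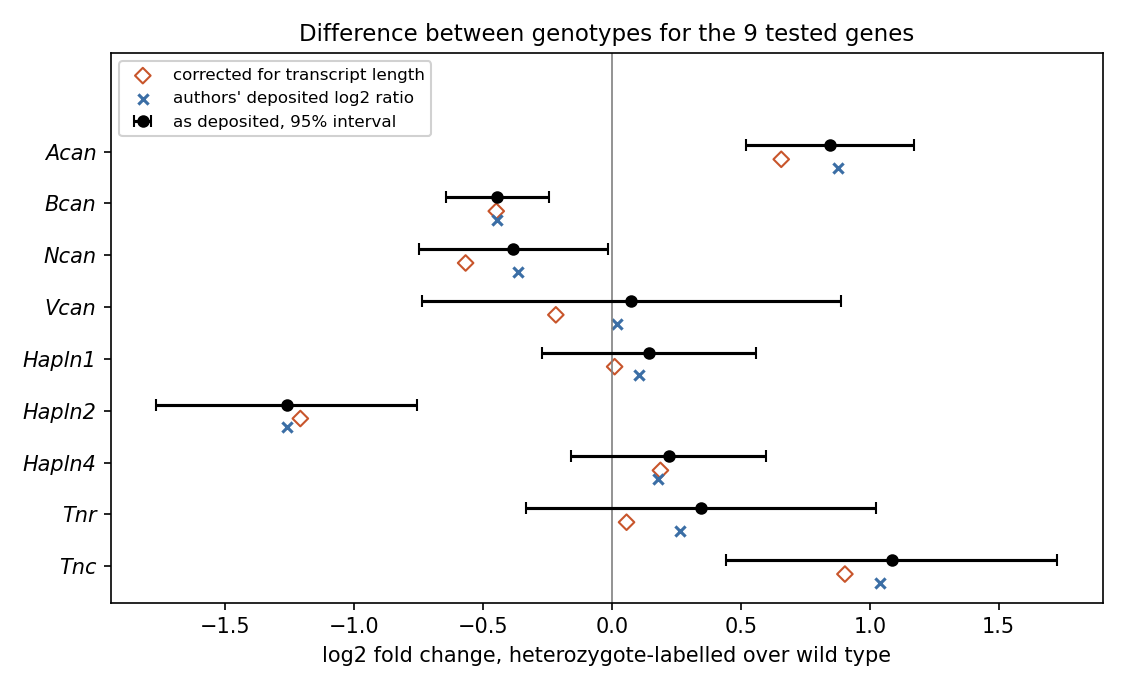
Log2 fold change (x axis) of the 9 tested genes. Black circles with bars are limma-trend estimates with 95% intervals, orange diamonds the estimates with the length trend removed, blue crosses the authors' log2 ratios from their deposited table. The intervals of Acan, Bcan, Ncan, Hapln2 and Tnc do not include 0.

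Levels were next compared between genes per kilobase of the longest annotated transcript. In wild type the order was Hapln4 (1395 ± 370 normalized counts per kilobase), Bcan (754.2 ± 53.9), Hapln2 (366.0 ± 100), Acan (236.7 ± 9.85), Hapln1 (141.0 ± 37.7), Ncan (60.8 ± 5.65), Tnc (28.5 ± 11.6), Vcan (8.75 ± 3.98), Tnr (7.02 ± 2.84) and Hapln3 (4.55 ± 3.38), each SD with n = 4. Neighbours from Hapln4 down to Vcan did not overlap over the 4 libraries, and Vcan, Tnr and Hapln3 overlapped each other. In the libraries labelled heterozygote Acan (435.3 ± 105) stood above Hapln2 (153.0 ± 43.5) in all 4 and overlapped Bcan (553.8 ± 39.7), and Hapln2 overlapped Hapln1 (151.7 ± 17.97).

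Within the lectican family the shares did not overlap between genotypes for Acan and Bcan, while the summed level did. Acan was 22.2%, 24.01%, 23.1% and 20.2% of lectican transcripts per kilobase in wild type and 46.0%, 32.8%, 38.8% and 47.4% in the libraries labelled heterozygote. Bcan made up 68.2% to 74.2% in wild type and 46.9% to 61.4% in the libraries labelled heterozygote. The Acan to Bcan ratio was 0.272 to 0.352 against 0.535 to 1.01. The summed lecticans were at 1060 ± 39.9 and 1045 ± 97.4 normalized counts per kilobase (SD, n = 4 each), with overlapping ranges. Hapln4 was 60.0% to 80.3% of the link proteins in wild type and 81.2% to 86.7% in the libraries labelled heterozygote. Hapln2 was 11.7% to 33.5% in wild type and 5.07% to 10.8% in the libraries labelled heterozygote. Shares of 1 family sum to 100%, so its members do not vary independently.

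**Figure D3:**
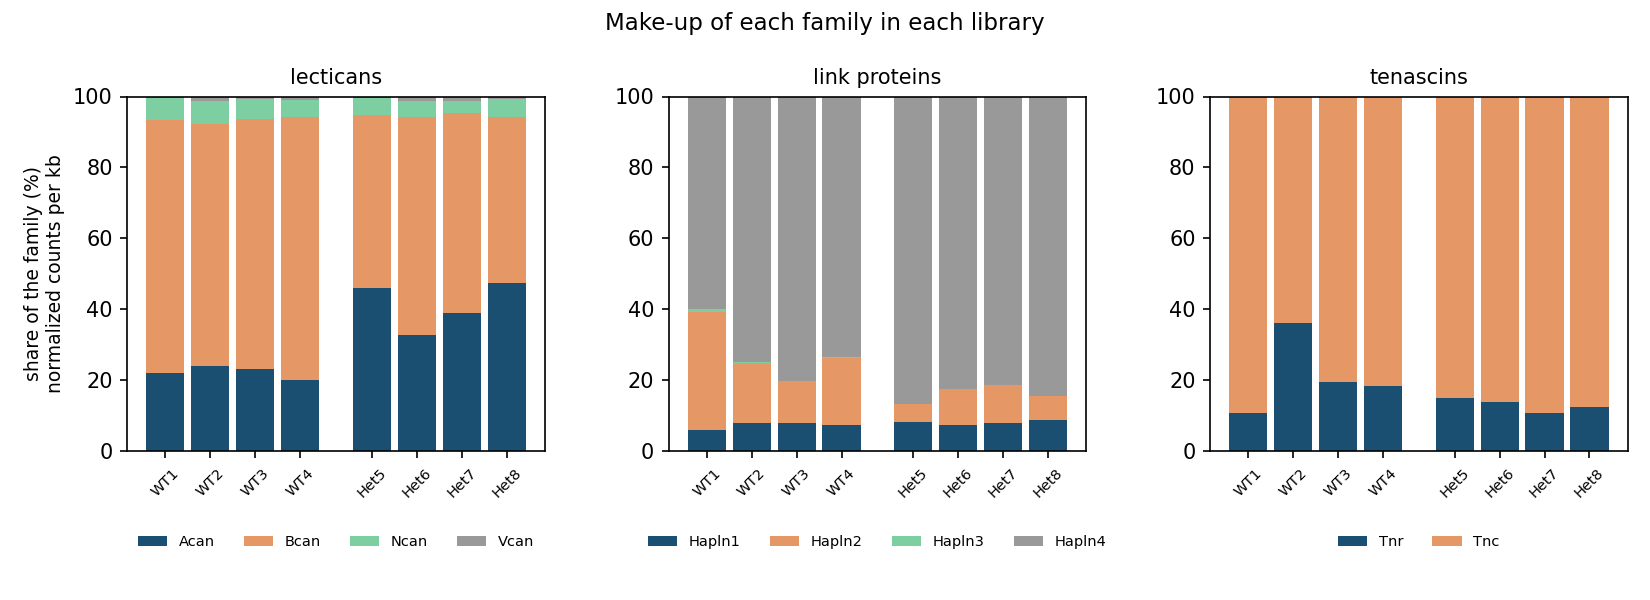
Share of each gene (y axis, percent of normalized counts per kilobase) in its family, in each of the 8 libraries. The Acan share is larger in every library labelled heterozygote (Het5 to Het8) than in any wild-type library (WT1 to WT4), and the Hapln2 share is smaller.

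The enzymes and receptors around these proteins were read from the same fit, and 0 of 59 genes in the 6 pathway lists passed with limma-trend after adjustment. Counts at an unadjusted p under 0.05 stand beside 6.72% of all genes higher and 7.34% lower. The values of these lists are not corrected for transcript length. Their signs and medians stand beside medians of all genes from -0.25 to 0.23 over the length bins. Of the 6 tested genes that make or break down hyaluronan, all had a log2 fold change above 0, with a median of 0.25 and 2 at an unadjusted p under 0.05. Hyal1, a lysosomal hyaluronidase, was at 0.53 (means of 287.4 and 418 normalized counts, limma-trend adjusted p 0.259) and Cemip, a hyaluronan-degrading protein, at 0.26. Of 8 hyaluronan receptors and binding proteins, 4 were above and 4 below 0. Tnfaip6, which transfers heavy chains to hyaluronan, was at -0.85 and the receptor Cd44 at -0.39, both with an unadjusted limma-trend p under 0.05.

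Adamts4, an aggrecanase of the proteases that cut lecticans, was the gene of these lists with the smallest p. It had 898.1, 882.4, 695.7 and 783.9 normalized counts in wild type and 327.0, 427.8, 556.0 and 433.2 in the libraries labelled heterozygote, with no overlap. The log2 fold change was -0.92, with a limma-trend adjusted p of 0.0632 and an FDR of 9.72e-05 in the authors' deposited table. The other 5 tested proteases had intervals that include 0, from Adamts9 at 0.34 to Adamts15 at -0.033, and Adamts5, another aggrecanase, was at 0.0025 (95% interval -0.32 to 0.33).

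Of 21 genes that build or sulphate chondroitin chains, 15 were above 0 and 6 below, with a median log2 fold change of 0.13. At an unadjusted limma-trend p under 0.05 there were 4 higher and 3 lower of the 21, where 6.72% of all genes were higher and 7.34% lower, with 0 past the adjusted threshold. Chst11 and Chst15, sulphotransferases of chondroitin, were at 0.48 and 0.43 (limma-trend adjusted p 0.214 for Chst11, 0.236 for Chst15). The FDR of Chst11 in the authors' deposited table was 0.0382. Of 14 receptors of these proteoglycans and tenascins, 11 were above 0, with 2 higher and 1 lower at an unadjusted limma-trend p under 0.05. Ptprs, a receptor phosphatase that binds chondroitin sulphate, was at 0.32, and the growth factor receptor Egfr at 0.41, neither past the threshold (limma-trend adjusted p 0.297 and 0.305). The lower one was Cntn2, a cell adhesion protein, at -0.27 (95% interval -0.50 to -0.03, limma-trend adjusted p 0.317). Among 4 other tenascins and proteoglycans, Cspg4 was at 0.36 and Ptprz1 at -0.30, with 0 past the threshold and 1, Cspg4, at an unadjusted p under 0.05.

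**Figure D4:**
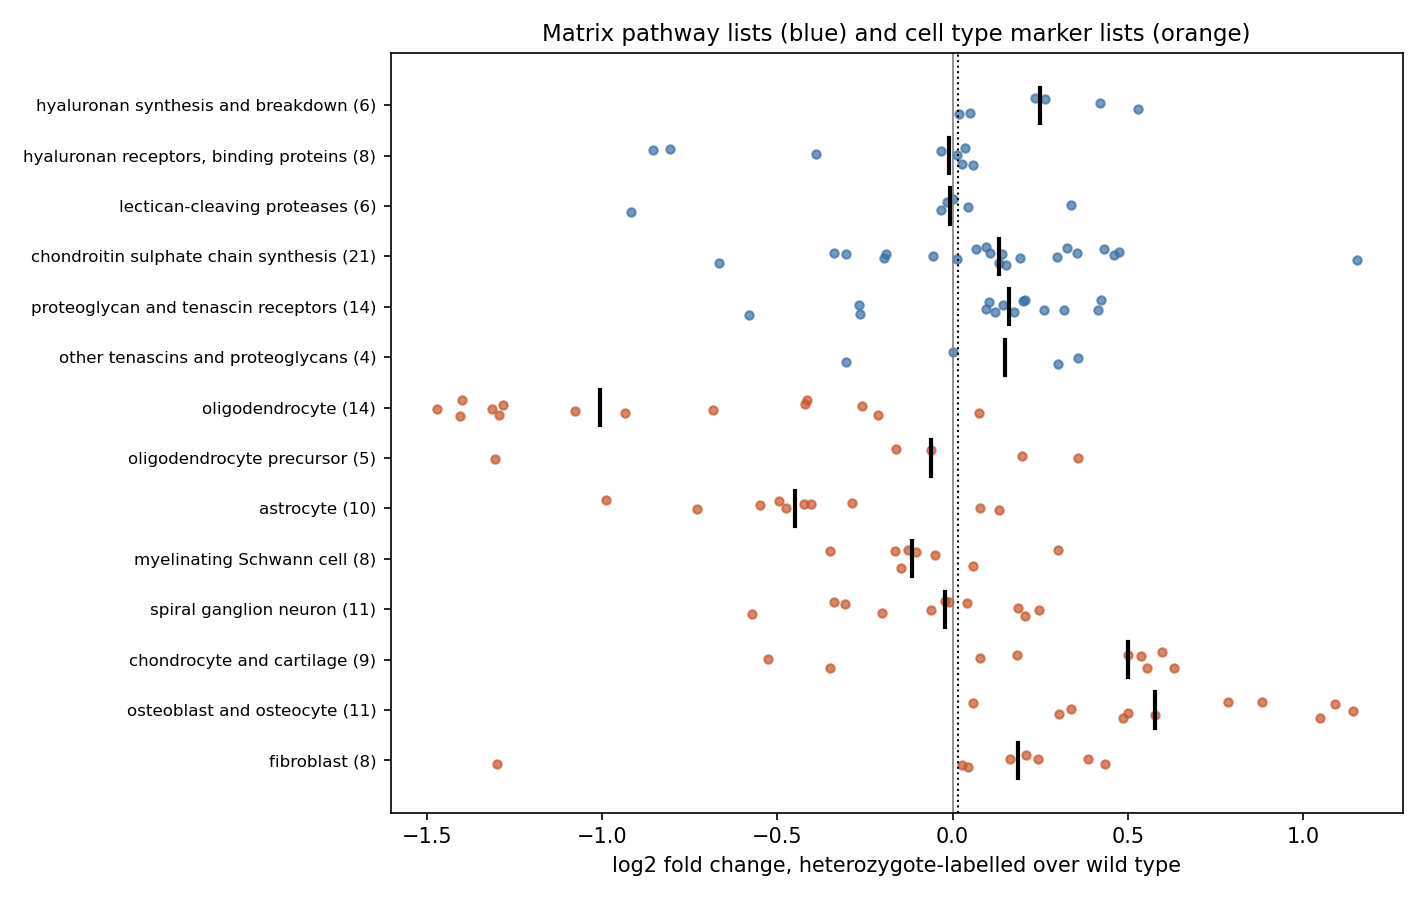
Log2 fold change (x axis) of each tested gene in the pathway lists (blue) and cell type marker lists (orange), with the number tested in brackets. Black bars are list medians and the dotted line is the median of all tested genes, 0.015. The oligodendrocyte list has a median of -1.01.

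The genes most like Acan and Hapln2 over the 8 libraries were found by the root mean square difference of centred log2 values. Nearest to Acan was Espn, for an actin-bundling protein of hair cell stereocilia, at a difference of 0.141, where Acan itself varies by 0.478. Gm9079, Smpd3, Zfp324 and Zbed4 followed at 0.178 to 0.214. Among those nearest to Hapln2 were Fabp7 (0.0848), Klk6 (0.0951), Mog (0.145) and Gpr17 (0.175), where Hapln2 itself varies by 0.726. Mog encodes a myelin glycoprotein of oligodendrocytes. Klk6, Mog and Smpd3 were past the limma-trend adjusted threshold (0.0420, 0.0354 and 0.0420), and the other 6 named here were not.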

How the data were processed

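Auditory nerves of 8 mice were sequenced as strand-specific poly(A) libraries, per the labels' protocols. Per the submitters' processing notes, Partek, STAR, DESeq2 and the build mm10 were used, and versions, annotation and strand setting are not given in the sources used here. The authors' deposited table holds a signal column per library, normalized counts to 1 decimal as judged from the values. For the authors' own comparison the deposited columns give a p-value with its FDR, a linear ratio and the log2 of that ratio. The authors' signed fold change, a score, was not used. The value of 1 read was estimated from the step between low values, of which 72.9% to 87.7% were whole multiples within 0.06, too few for a count model.

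Genes reaching 10 normalized counts in 4 or more libraries were tested as log2(value + 1) with limma-trend (limma 3.58.1, R 4.3.3). The fit used all 8 libraries and no covariate, and p-values were adjusted by Benjamini-Hochberg. A fold change on that scale understates low genes. The design named a count test for raw counts and limma-trend for normalized values. Length came from the longest GENCODE M21 transcript, for 98.9% of tested genes, and its trend was removed by loess (span 0.5), over 14709 genes. Python 3.11.15 drew the figures. On simulated data for this comparison over 14870 genes, 195 of 200 changed genes were recovered (100% of 4-fold and 95% of 2-fold changes), with 11 false calls and 0 when none changed. The simulation gave every gene the same relative spread and let libraries differ only in depth. Those shares therefore do not tell what could be detected in the real data, where Hapln2 and Tnc, at log2 fold changes of -1.26 and 1.09, did not pass. Named were all members, Mef2c, Xist, the 2 genes of smallest p in each pathway list and those past the threshold, up to 3 genes by level of each marker list, and the 5 genes most like the member of smallest p in each direction. Other genes, such as Adamts5, Adamts9, Adamts15 and Cntn2, markers beyond that rule, and the ratios to marker sums were picked with their values in view. The members and lists were chosen with earlier results of these data known. Some genes that this rule names are not reported here. The alternatives were other pseudocounts, filters, scalings and variance models, low Xist as a covariate or left out, the length correction, and each library left out.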

Additional observations from a re-analysis of the deposited data

How the results depend on the processing

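The number of genes past the adjusted threshold, 12 with limma-trend, was 7 with quantile normalization, 0 without the variance trend and 28 with the correction for transcript length. It ran from 0 to 221 when each library was left out, highest when wild-type library 3 was the one left out and 0 when it was wild-type 2, wild-type 4 or heterozygote-labelled 8. Of the 9 members tested, 0 passed in the main analysis, 1 (Hapln2) with the length correction, and 0 to 3 when each library was left out. Acan, Bcan, Hapln2, Tnc, Ncan and Tnr kept their sign in all 19 alternatives. The limma-trend or limma adjusted p ran from 0.0211 to 0.310 for Acan, 0.0188 to 0.345 for Hapln2, 0.0477 to 0.504 for Bcan and 0.0546 to 0.615 for Tnc. The log2 fold change of Vcan was -0.22 with the length correction and ran from -0.22 to 0.33 with each library left out. That of Hapln1 was -0.11 without the libraries low in Xist and ran from -0.07 to 0.27 with each library left out. Hapln4 was at -0.029 without the libraries low in Xist and ran from 0.018 to 0.35 with each library left out, Tnr from 0.17 to 0.52 and Ncan from -0.47 to -0.24. The cause of these shifts was not tested. No paired analysis was possible because the genotypes share no replicate number. Depth limits Hapln3, at an estimated 2.98 to 4.05 reads in 5 libraries, and 4 libraries against 4 cannot give an exact permutation p under 0.0286.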

Other observations

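The lectican and link protein neighbours were set side by side. Beside Acan, higher in all 4 libraries labelled heterozygote at 2355 to 3954 normalized counts, Hapln3 was at 2.6 to 3.8 there and 3.7 to 29.8 in wild type, although the genes end 2 bases apart. Bcan and Hapln2 were both lower, with log2 fold changes of -0.45 and -1.26. Ncan was at -0.38 and Hapln4, next to it, at 0.22. Vcan and Hapln1, on the chromosome of Mef2c, were at 0.074 and 0.14. The differences within pairs were not tested.

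Hapln3 was highest in wild-type libraries 1 and 4 (29.8 and 18.1 normalized counts), which were also highest in Hapln2 (1160 and 896.2) and in the oligodendrocyte marker sum (160790 and 155864). Those Hapln3 values stand for an estimated 22.96 and 14.98 reads. The same libraries had the fewest estimated reads (13360997 and 14192457) and were also highest in the neuron marker Pvalb (17180 and 15882). This match was picked with the values in view and was not tested. Of 20 groups of 4 libraries, 2 for each gene, 0 held a library far from the other 3 by Dixon's criterion.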
